A study of Mus musculus with 8 samples.

Results

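Meg3, Dlk1, H19, Igf2, Cdkn1c, Nnat, Peg3, Plagl1, Grb10 and Peg10 are imprinted genes known from islets and from fetal growth, and they were chosen by name. The arrays held 18 probes for these 10 genes, among 56605 probes in all and 22911 genes with a named probe. Of the 10 genes, 8 had their brightest probe well above background on all 8 arrays, while H19 and Peg10 did not reach that level anywhere. A probe is called detected below on an array where the scanner software marked it well above background, and dim where it did not. None of the 10 passed the test between the groups after adjustment over all probes (limma), and 3 had an unadjusted p under 0.05, H19 among them, as did 19.5% of all genes. Grb10, an adaptor that holds back insulin and insulin-like growth factor receptor signalling, had the largest difference among the 8 measured genes, with a signal 1.59-fold higher in control islets (adjusted p = 0.0795 by limma). Under alternatives of processing and left-out arrays its adjusted p lay between 0.0607 and 0.774, both by limma.

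An imprinted gene is read mainly from the copy inherited from 1 parent, because DNA methylation laid down in the egg or the sperm marks a control region near it. Such genes lie in clusters, in which 1 control region can set the activity of protein-coding genes and long noncoding RNAs alike. Many paternally expressed members favour growth and many maternally expressed members restrain it, and several are known from β-cell growth and from inherited disorders of insulin secretion. The probes read total RNA of a gene, so the parental copies were not told apart here.

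RNA came from islets of 11-week-old male mice, with 150 islets in each extraction and 4 extractions per group. The control group consisted of Fbln5-floxed mice, in which loxP sites flank exons of Fbln5. The βFbln5KO group carried the floxed alleles together with Ins1-Cre, a transgene in which the mouse insulin 1 promoter drives Cre recombinase in β-cells, so that other islet cells retained the gene. Arrays of mice with Cre and without floxed alleles were not analysed here. The series calls the 4 extractions of a group biological replicates. All signals below are log2 processed intensities minus the 75th percentile of the same array, so that 0 is the 75th percentile and a difference of 1 is a 2-fold difference. They are comparable between arrays for 1 probe and not between probes.

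Fbln5, the targeted gene, had signals of −1.70, −1.32, −2.05 and −1.83 on control arrays 1 to 4 and of −2.74, −2.40, −2.38 and −1.37 on the arrays labelled βFbln5KO 1 to 4. The array labelled βFbln5KO replicate 4 lay within the control range, and the difference did not pass the test (log2 fold change −0.50, SE 0.29, adjusted p = 0.342 by limma). Without that array the log2 fold change was −0.78 (adjusted p = 0.0227 by limma), so values without it are given below where it moves a measured member by over 1.5 times. Each group filled its own row of the slide, and any effect of that row cannot be told apart from genotype. Of the spots, 56.6% to 58.8% were detected on control arrays, and 52.6% to 56.6% on βFbln5KO arrays. The 18859 probes dim on all 8 arrays had a median log2 fold change of 0.47, against −0.02 for the 26612 probes detected on all 8.

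Counted by the brightest probe of each gene, 3 of the 10 genes had an unadjusted limma p under 0.05 (19.5% of all genes did), and 0 passed after adjustment (0.0131% of all genes did). The 3 were Grb10 and Peg3, both lower in βFbln5KO islets (2.68% of all genes were lower at that threshold), and H19, which was higher but dim on every array (16.8% of all genes were higher). Among the 8 genes detected on all arrays, 2 were lower and 0 higher, against 3.08% and 1.01% of the 13650 genes measured this well. The median log2 fold change of these 8 genes was −0.20, and that of the 13650 genes was −0.01. Without the array labelled βFbln5KO replicate 4, the count of 3 genes and the adjusted count of 0 were the same, while the share of all probes past the adjusted threshold went from 0.0106% to 20.4%.

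**Figure D1:**
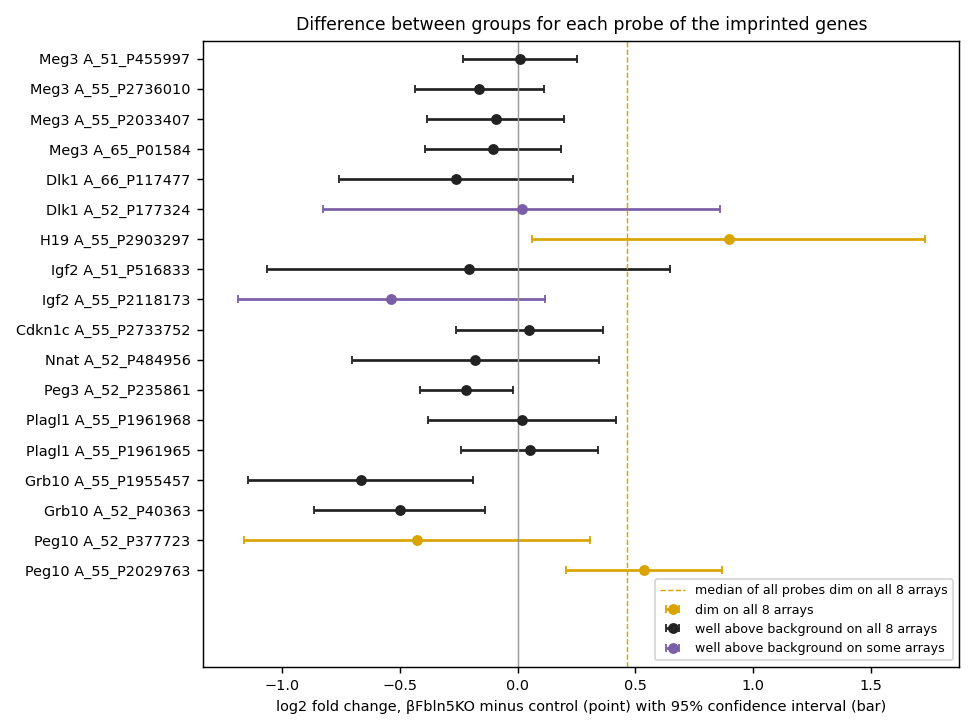
Log2 fold change, βFbln5KO minus control, of each of the 18 probes on the horizontal axis, with its 95% confidence interval from limma, 1 probe per line. Intervals of the Grb10 probes and of Peg3 lie below 0, while those of Meg3, Dlk1, Igf2, Cdkn1c, Nnat and Plagl1 include 0. Yellow marks probes dim on all 8 arrays, for which no fold is read, and the dashed line is the median of all such probes, 0.47.

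Grb10 lies on chromosome 11 and is maternally expressed in most tissues. It binds the activated insulin and insulin-like growth factor receptors and inhibits their signalling. RefSeq gives it a pair of starts on the minus strand of GRCm38.p6, shown here as the 250 bases upstream of each because Grb10 had the largest difference among the measured genes and because imprinting marks are set on CpG sites, which are in capitals.
Grb10, upstream start, chr11:12037421-12037670, minus strand: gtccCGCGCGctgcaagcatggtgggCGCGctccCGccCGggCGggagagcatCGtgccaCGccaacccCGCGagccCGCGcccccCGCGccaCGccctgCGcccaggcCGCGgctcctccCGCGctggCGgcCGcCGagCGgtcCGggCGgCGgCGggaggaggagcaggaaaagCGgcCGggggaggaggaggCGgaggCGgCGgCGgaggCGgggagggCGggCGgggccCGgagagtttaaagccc
Grb10, downstream start, chr11:12027972-12028221, minus strand: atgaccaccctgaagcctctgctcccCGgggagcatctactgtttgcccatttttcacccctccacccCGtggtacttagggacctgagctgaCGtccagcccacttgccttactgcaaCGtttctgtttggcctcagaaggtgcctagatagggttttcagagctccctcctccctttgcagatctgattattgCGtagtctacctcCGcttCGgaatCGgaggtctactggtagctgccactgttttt
The upstream window holds 40 CpG sites, more than 98.7% of the 32841 windows of the same length, and the downstream window holds 8, against a median of 6. Neither holds the hexamer TGCCGC on either strand, the sequence that the imprint-protecting protein ZFP57 binds when methylated, which 8.68% of all windows hold. Bases outside these windows were not searched. The arrays measured neither methylation nor which start the islet RNA came from.

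The brighter Grb10 probe (A_55_P1955457) gave −1.88, −2.25, −1.62 and −2.48 on control arrays 1 to 4 and −2.65, −3.05, −2.73 and −2.47 on βFbln5KO arrays 1 to 4. Control replicate 4 lay just below βFbln5KO replicate 4, and the other control arrays were above every βFbln5KO array. The group means were −2.06 ± 0.38 (SD, n = 4) and −2.72 ± 0.24 (SD, n = 4), a log2 fold change of −0.67 (SE 0.21, 95% confidence interval −1.15 to −0.19, limma p = 0.0117 before adjustment, exact permutation p = 0.057, the smallest possible being 0.029). The second probe (A_52_P40363) gave −2.17, −2.72, −2.35 and −2.70 on control arrays and −2.99, −3.09, −2.97 and −2.91 on βFbln5KO arrays. Here every βFbln5KO array was below every control array, as at 2.72% of all probes. The log2 fold change of this probe was −0.50 (SE 0.16, exact permutation p = 0.029, adjusted p = 0.0813 by limma). Both probes ranked the arrays alike (Pearson r = 0.923 with exact permutation p = 0.00161 and Spearman rho = 0.881 with exact permutation p = 0.00724, over 8 arrays, r = 0.865 without the 2 most extreme arrays). Across all 18 alternatives of processing and left-out arrays the log2 fold change of Grb10 lay between −0.81 and −0.45, with an unadjusted p under 0.05 in 18 of 18 and an adjusted p from 0.0607 to 0.774. Ddc, the neighbour that shares its imprinted domain and makes dopamine and serotonin from their precursors, had a log2 fold change of 0.07 (SE 0.08).

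**Figure D2:**
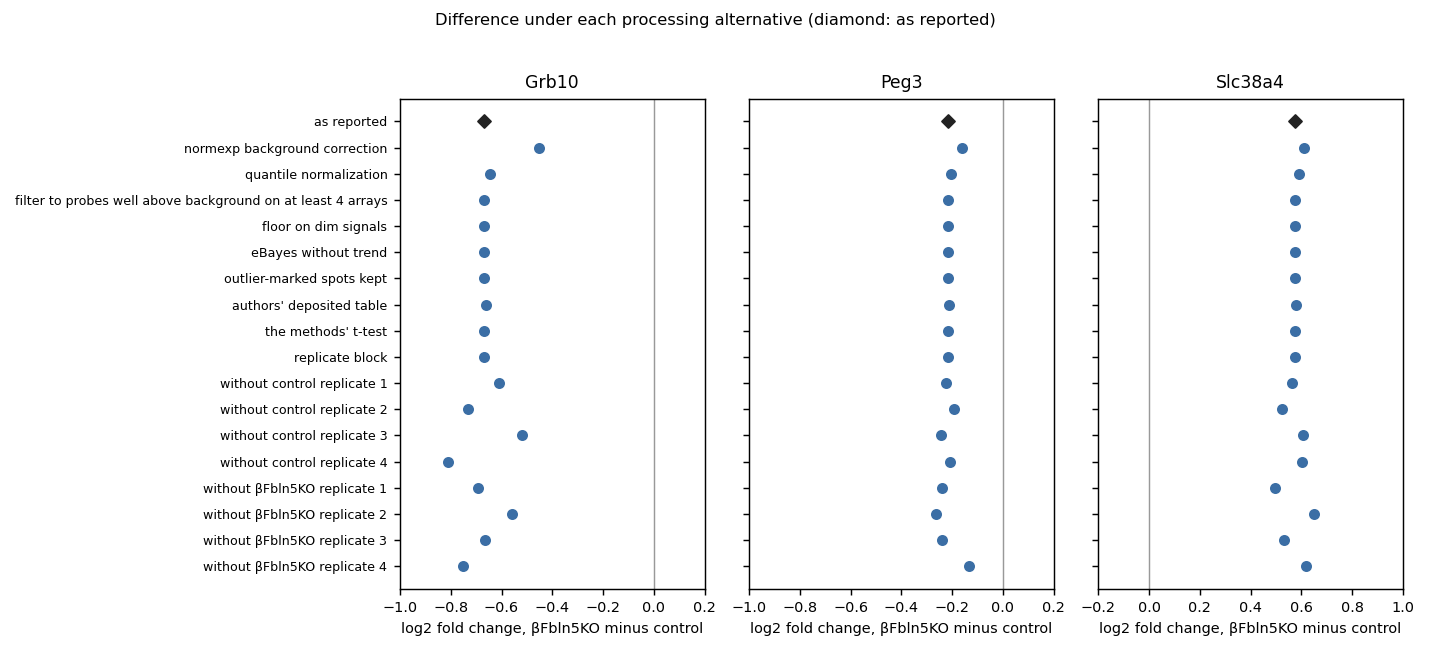
Log2 fold change, βFbln5KO minus control, of Grb10, Peg3 and Slc38a4 on the horizontal axes under each processing alternative but the mean of a gene's probes, and with each array left out, 1 setting per line. Grb10 and Peg3 stay below 0 and Slc38a4 above 0 in every setting shown, and Peg3 is nearest to 0, at −0.13, without the array labelled βFbln5KO replicate 4.

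The receptors and substrates that Grb10 and Igf2 act through were read from a list of partners. Insr, the insulin receptor, gave −2.46, −2.73, −2.12 and −2.34 on control arrays and −2.78, −2.68, −2.77 and −2.76 on βFbln5KO arrays. Control replicate 2 lay inside the βFbln5KO range and the other control arrays above it. Its log2 fold change was −0.34 (SE 0.15, limma p = 0.0487 before and 0.199 after adjustment, exact permutation p = 0.057), and its second probe was dim on all 8 arrays. Igf1r, the type 1 insulin-like growth factor receptor, had a log2 fold change of −0.08 (SE 0.10), and the insulin receptor substrates Irs1 and Irs2 had 0.11 (SE 0.07) and 0.08 (SE 0.24). Grb7 and Grb14, the adaptors most closely related to Grb10, had log2 fold changes of −0.03 (SE 0.06) and 0.12 (SE 0.12).

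Igf2, the paternally expressed fetal growth factor on chromosome 7, was measured by 2 probes. The brighter (A_51_P516833) gave −3.54, −2.84, −1.83 and −3.54 on control arrays and −3.08, −2.84, −3.15 and −3.51 on βFbln5KO arrays. Control replicate 3 was the highest, and the groups overlapped. The log2 fold change was −0.21 (SE 0.38, 95% confidence interval −1.06 to 0.65), and it was 0.16 without control replicate 3 and −0.09 without the array labelled βFbln5KO replicate 4. Control replicate 3 also had the highest mean of the 6 acinar markers, 6.55 against 4.60 to 6.19 on the other control arrays. Control replicate 4, at 6.19 for these markers, had the lowest Igf2 signal of all arrays. βFbln5KO replicate 4 was the highest of its group for the acinar markers, at 5.77, and the lowest of its group for Igf2. The part of acinar RNA in the Igf2 signal was not tested. The second Igf2 probe (A_55_P2118173) was detected on all 4 control arrays, from −4.79 to −4.09, and on 0 of 4 βFbln5KO arrays, from −5.48 to −4.61. No fold is given for it, because its control mean of −4.47 did not exceed the mean of the lowest detected signals of the βFbln5KO arrays, which lay between −4.70 and −4.19. Its groups overlapped (exact permutation p = 0.086). Igf1 and the binding proteins Igfbp5 and Igfbp7 had log2 fold changes of −1.20 (SE 0.88), −0.01 (SE 0.20) and 0.01 (SE 0.06), none with an unadjusted p under 0.05.

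Dlk1 lies on chromosome 12, is paternally expressed, and encodes a membrane protein of the Notch ligand family that holds precursor cells undifferentiated. Its brighter probe (A_66_P117477) gave −1.76, −1.55, −1.50 and −1.55 on control arrays and −2.45, −1.33, −2.00 and −1.63 on βFbln5KO arrays. The βFbln5KO arrays were spread more widely than the control arrays (SD 0.49 against 0.11, n = 4 each) and reached both above and below them. The log2 fold change was −0.26 (SE 0.22, 95% confidence interval −0.76 to 0.23, adjusted p = 0.551 by limma). It was −0.06 without βFbln5KO replicate 1 and −0.44 without βFbln5KO replicate 2. The second probe was detected on 2 of the control arrays and 0 of the others and gives no fold. Dlk2, the related gene that is not imprinted, had a log2 fold change of −0.02 (SE 0.08).

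Cdkn1c encodes p57Kip2, a maternally expressed inhibitor of cyclin-dependent kinases that halts the cell cycle, and its loss is known from focal overgrowth of β-cells. The signals were −0.37, 0.26, 0.19 and −0.04 on control arrays and −0.08, 0.22, 0.00 and 0.10 on βFbln5KO arrays. All βFbln5KO arrays lay inside the control range, and the log2 fold change was 0.05 (SE 0.14, 95% confidence interval −0.26 to 0.36). It was −0.08 without control replicate 1 and 0.13 without control replicate 2. The other inhibitors of the family, Cdkn1a (p21) and Cdkn1b (p27), had log2 fold changes of 0.20 (SE 0.21) and −0.11 (SE 0.08).

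Plagl1, on chromosome 10, encodes a paternally expressed zinc finger factor that restrains proliferation, and its excess causes transient neonatal diabetes in humans. The brighter probe (A_55_P1961968) gave 1.47, 2.02, 2.06 and 1.58 on control arrays and 1.40, 1.93, 1.81 and 2.07 on βFbln5KO arrays. The second probe (A_55_P1961965) gave −0.38, −0.58, −0.94 and −0.56 on control arrays and −0.35, −0.56, −0.63 and −0.71 on βFbln5KO arrays. The probes ran against each other: the arrays lowest for the first, βFbln5KO 1 and control 1, were the highest for the second. Over 8 arrays Pearson r was −0.815 (exact permutation p = 0.00647) and Spearman rho was −0.905 (exact permutation p = 0.00456), with r = −0.786 within the control arrays and −0.936 within the βFbln5KO arrays. Without the 2 most extreme arrays r was −0.543. This was 1 of 8 probe pairs compared within genes, and the adjusted p-values of r and rho were 0.0102 and 0.0193. Neither probe passed the test between the groups, with log2 fold changes of 0.02 (SE 0.18) and 0.05 (SE 0.13). For the first it was −0.07 without the array labelled βFbln5KO replicate 4. The related factors Plag1 and Plagl2 had log2 fold changes of 0.12 (SE 0.16) and 0.09 (SE 0.11).

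**Figure D3:**
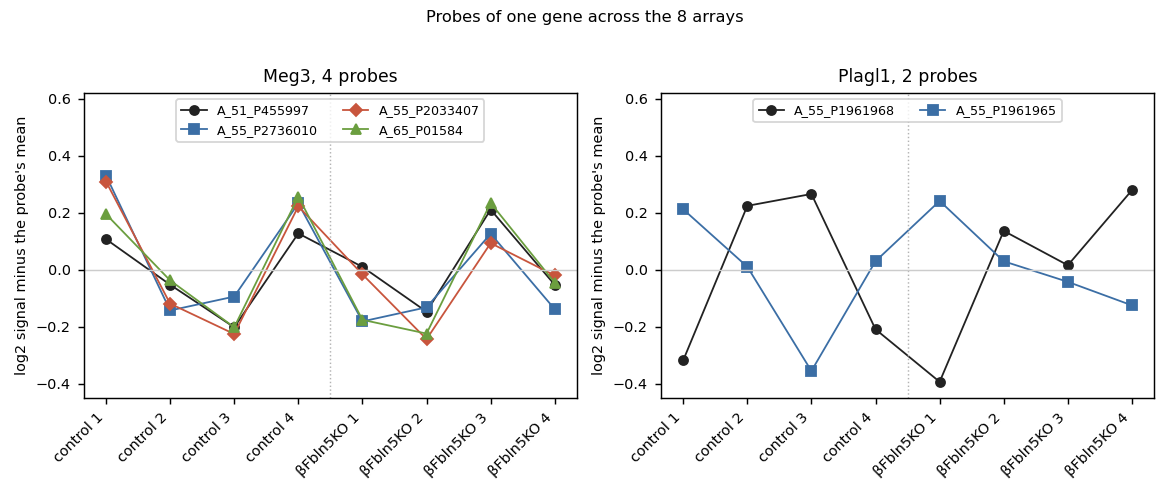
Log2 signal of each probe minus its own mean over the 8 arrays (vertical axis) on each array (horizontal axis), for the 4 Meg3 probes on the left and the 2 Plagl1 probes on the right. The Meg3 lines rise and fall together, with pairwise r from 0.725 to 0.898, and the Plagl1 lines mirror each other, with r = −0.815.

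Peg3, on chromosome 7, encodes a large paternally expressed zinc finger protein known from cell death pathways and maternal behaviour. The 250 bases upstream of its RefSeq start are shown because Peg3 was the other measured gene with an unadjusted p under 0.05, again with CpG sites in capitals.
Peg3, chr7:6730420-6730669, minus strand: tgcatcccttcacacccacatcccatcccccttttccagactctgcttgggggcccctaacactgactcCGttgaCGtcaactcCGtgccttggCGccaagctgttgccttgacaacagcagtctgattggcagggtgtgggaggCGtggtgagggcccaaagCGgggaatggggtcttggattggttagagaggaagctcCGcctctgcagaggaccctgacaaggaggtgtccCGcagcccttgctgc
This window holds 8 CpG sites and no TGCCGC on either strand, and bases outside it were not searched. The Peg3 probe (A_52_P235861) gave 3.87, 3.96, 3.81 and 3.92 on control arrays and 3.74, 3.81, 3.74 and 3.42 on βFbln5KO arrays. All βFbln5KO arrays lay below all control arrays, though βFbln5KO replicate 2 and control replicate 3 were less than 0.01 apart. The log2 fold change was −0.22 (SE 0.09, 95% confidence interval −0.41 to −0.02, limma p = 0.0333 before and 0.153 after adjustment, exact permutation p = 0.029). Of the measured genes, 2.07% had all βFbln5KO arrays below all control arrays. Without the array labelled βFbln5KO replicate 4 the log2 fold change was −0.13 (adjusted p = 0.164 by limma). The unadjusted p was under 0.05 in 10 of 17 alternatives. Its neighbours Usp29, a ubiquitin protease that shares the Peg3 promoter region, and Zim1, a maternally expressed zinc finger gene, had log2 fold changes of −0.18 (SE 0.11) and −0.14 (SE 0.17). A second Zim1 probe, also detected on all 8 arrays, had −0.50 (SE 0.21, adjusted p = 0.171 by limma), with overlap between the groups.

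Meg3 is a maternally expressed long noncoding RNA on chromosome 12, in the same domain as Dlk1, and it is abundant in β-cells. All 4 probes were detected on all 8 arrays. The brightest (A_51_P455997) gave 6.29, 6.13, 5.98 and 6.31 on control arrays and 6.19, 6.04, 6.39 and 6.13 on βFbln5KO arrays, so that the groups covered nearly the same range. Its log2 fold change was 0.01 (SE 0.11, 95% confidence interval −0.23 to 0.25), and it was 0.03 without the array labelled βFbln5KO replicate 4. The other probes had log2 fold changes of −0.16 (SE 0.12), −0.09 (SE 0.13) and −0.11 (SE 0.13), all with intervals that include 0. The probes followed each other across arrays, with Pearson r from 0.725 to 0.898 in 6 of 6 pairs (exact permutation p from 0.00518 to 0.0494), while Spearman rho ranged from 0.429 to 0.881 (exact permutation p from 0.00724 to 0.299). Controls 1 and 4 and βFbln5KO replicate 3 were the 3 highest arrays for each of the 4 probes. Rian and Mirg, noncoding RNAs made from the same maternal copy as Meg3, had log2 fold changes of −0.36 (SE 0.16, exact permutation p = 0.171) and 0.11 (SE 0.12).

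H19, the maternally expressed noncoding RNA that shares enhancers with Igf2, gave −7.15, −7.11, −7.30 and −7.07 on control arrays and −5.03, −6.52, −6.55 and −6.95 on βFbln5KO arrays. The βFbln5KO arrays were above the control arrays, as at 48.7% of all probes dim on all 8 arrays. H19 was dim in both groups, so no fold is given (limma p = 0.038 before and 0.168 after adjustment, exact permutation p = 0.029). The unadjusted p was under 0.05 in 7 of 14 alternatives. Peg10, a paternally expressed gene derived from a retrotransposon and needed for the placenta, was likewise dim on all 8 arrays at both probes. Its probes differed in sign between the groups, and no fold is given for either.

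Nnat, on chromosome 2, encodes neuronatin, a paternally expressed membrane protein of the endoplasmic reticulum known from insulin processing in β-cells. Its probe (A_52_P484956) gave 1.53, 1.74, 2.20 and 1.54 on control arrays and 1.05, 2.11, 1.71 and 1.40 on βFbln5KO arrays. The groups overlapped, with a log2 fold change of −0.18 (SE 0.23, 95% confidence interval −0.71 to 0.34). It was −0.01 without βFbln5KO replicate 1, −0.03 without control replicate 3 and −0.36 without βFbln5KO replicate 2. Blcap, in whose intron Nnat lies, had −0.12 (SE 0.09).

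**Figure D4:**
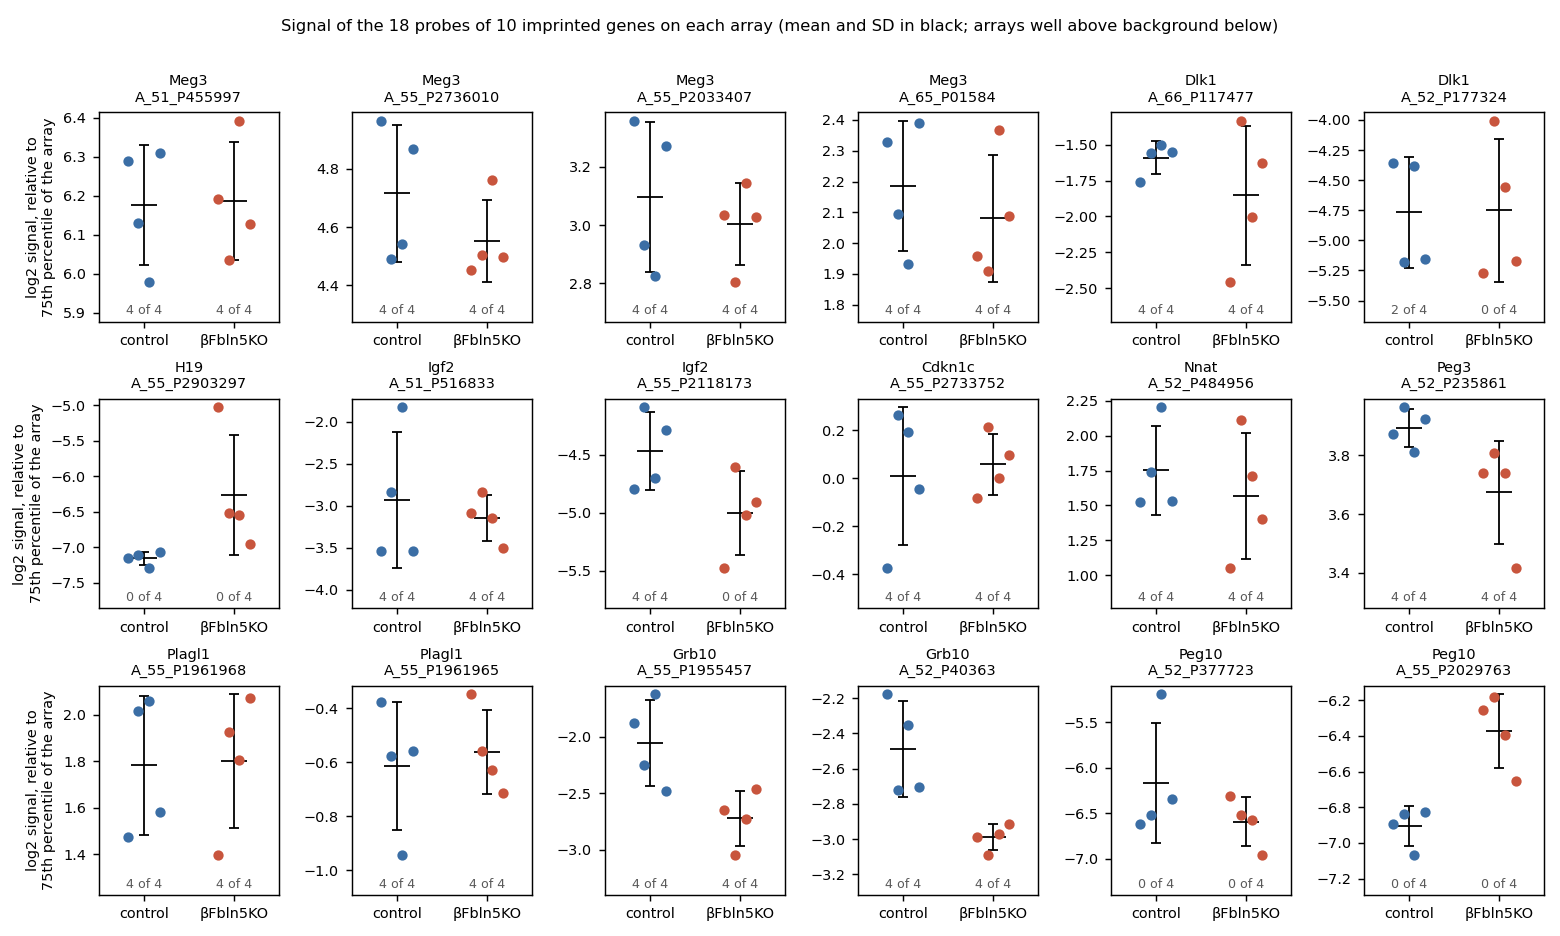
Log2 signal relative to the 75th percentile of the array (vertical axes, scaled to each probe) of the 18 probes on 4 control and 4 βFbln5KO arrays. Points are arrays, black marks are means with SD, and the numbers at the foot count arrays on which the probe was detected. The groups do not overlap for Peg3, 1 Grb10 probe, H19 and 1 Peg10 probe, of which the last pair are dim on all 8 arrays.

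Beyond the 10 genes, 52 of 55 other listed imprinted genes had a named probe, and 37 of these were detected on all 8 arrays. Of the 37, 1 had an unadjusted limma p under 0.05, the amino acid transporter gene Slc38a4, and their median log2 fold change was 0.01. Among all genes detected on every array 1.01% were higher and 3.08% lower, with a median of −0.01. Over all 52 the count was 3, with the dim genes Calcr and Mkrn3, against 16.8% higher over all genes, and the median was 0.02. Slc38a4 is paternally expressed, encodes a sodium-coupled transporter of small neutral amino acids, and lies on chromosome 15 next to Slc38a2, which in turn lies next to Slc38a1. Of its 3 RefSeq starts, the window at the most upstream is shown because this was the imprinted gene with the smallest p among those measured on every array.
Slc38a4, chr15:97055957-97056206, minus strand: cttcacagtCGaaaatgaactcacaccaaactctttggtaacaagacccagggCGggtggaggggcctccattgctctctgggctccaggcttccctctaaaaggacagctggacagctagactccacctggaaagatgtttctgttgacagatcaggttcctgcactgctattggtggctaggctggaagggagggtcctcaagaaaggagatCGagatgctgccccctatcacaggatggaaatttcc
It holds 3 CpG sites, in capitals, with fewer in 29% of all windows. The brighter Slc38a4 probe (A_52_P48569) gave 3.05, 2.94, 3.19 and 3.18 on control arrays and 3.89, 3.43, 3.79 and 3.53 on βFbln5KO arrays. All βFbln5KO arrays were above all control arrays, as for 0.733% of genes measured on all 8 arrays. The signal was 1.49-fold higher in βFbln5KO islets (log2 fold change 0.57, SE 0.11, limma p = 5.48e-04 before and 0.0728 after adjustment, exact permutation p = 0.029). The second probe had a log2 fold change of 0.62 (SE 0.13), again with no overlap between the groups. By limma, the adjusted p was 0.754 with normexp background correction, 0.603 with quantile normalization and 0.774 with a floor on dim signals. It was 0.657 when only probes detected on 4 or more arrays were kept. It was under 0.05 in 2 of 17 alternatives, without the array labelled βFbln5KO replicate 4 (0.00687) and with limma fitted without a mean-variance trend (0.0498). In these settings 20.4% and 11.6% of all probes passed the adjusted threshold, against 0.0106% as reported, and the unadjusted p of Slc38a4 was larger in both than as reported.

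**Figure D5:**
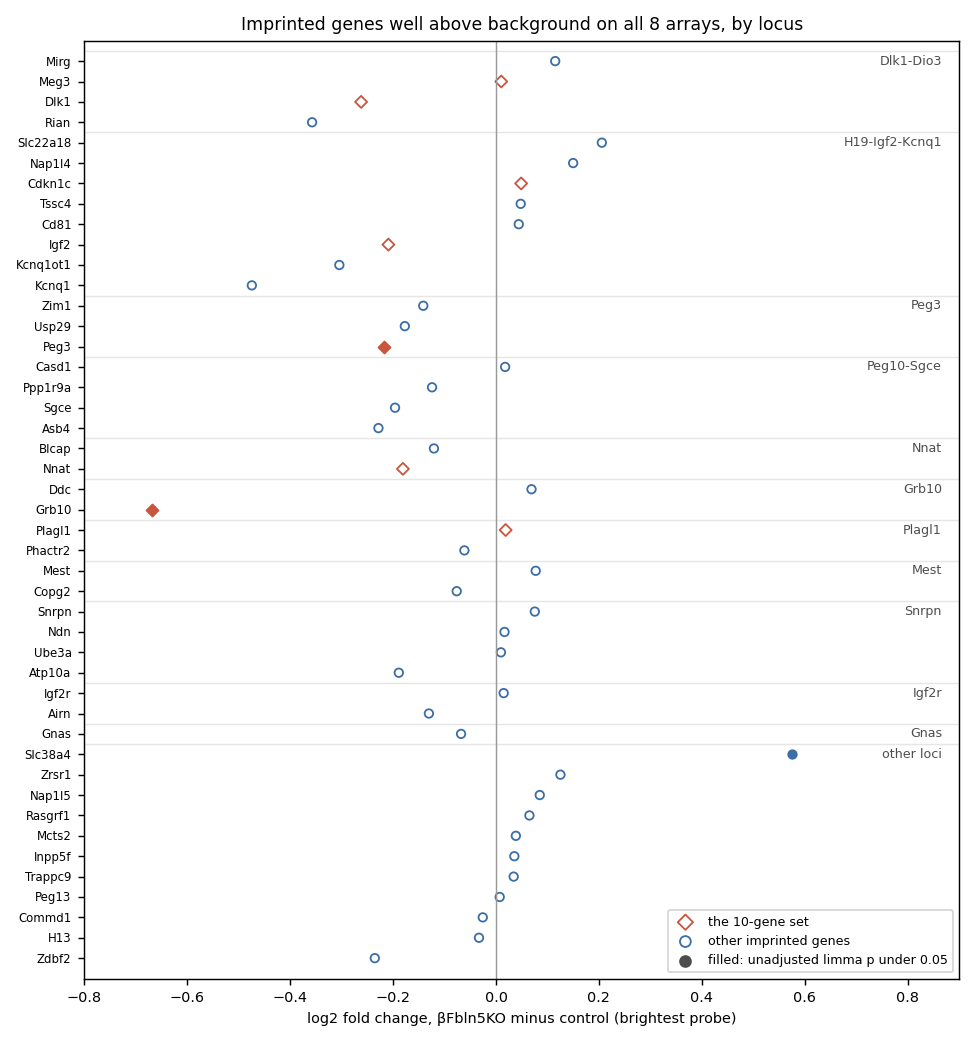
Log2 fold change, βFbln5KO minus control, of the 45 imprinted genes whose brightest probe was detected on all 8 arrays, grouped by imprinted domain. Diamonds are genes of the 10-gene set, circles are other imprinted genes, and filled marks have an unadjusted limma p under 0.05. Grb10 (−0.67) and Peg3 (−0.22) are the filled marks below 0 and Slc38a4 (0.57) is the filled mark above it.

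Each of the remaining genes detected on all 8 arrays overlapped between the groups. Kcnq1ot1, the paternal noncoding RNA that silences the domain of Cdkn1c, gave 2.75, 2.22, 2.03 and 2.30 on control arrays and 2.09, 2.03, 2.18 and 1.78 on βFbln5KO arrays at its brightest probe. Control replicate 1 was the highest array. The log2 fold change was −0.30 (SE 0.15, exact permutation p = 0.114), and that of its 3 other probes detected on all arrays was −0.33, −0.42 and −0.45. Without control replicate 1 the log2 fold change at the brightest probe was −0.16. Kcnq1, a potassium channel gene of the same domain, had a log2 fold change of −0.47 (SE 0.25) over 7 arrays, since control replicate 1 was left out as an outlier spot. A second Kcnq1 probe, detected on all 8 arrays, had −0.25 (SE 0.32), and control replicate 1 was the lowest array on it. Values for Zdbf2, Sgce and Asb4 were −0.24 (SE 0.13), −0.20 (SE 0.12) and −0.23 (SE 0.14), and Ppp1r9a had −0.12 (SE 0.08). Second probes detected on all 8 arrays had −0.03 (SE 0.11) for Sgce and −0.34 (SE 0.16) for Ppp1r9a. For domains with at least 3 measured genes, the median was −0.18 for Peg3 (3 genes), −0.16 for Peg10 and Sgce (4 genes), −0.13 for Dlk1 and Meg3 (4 genes), 0.05 for Igf2 and Cdkn1c (8 genes) and 0.01 for Snrpn (4 genes). For domains of 2 measured genes it was −0.30 for Grb10, −0.15 for Nnat, −0.06 for Igf2r, −0.02 for Plagl1 and 0.00035 for Mest.

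The proteins that copy and protect imprints were listed as 9 genes, among them Zfp57, Zfp445, Trim28, Dnmt1 and Uhrf1. None had an unadjusted limma p under 0.05 (19.5% of all genes did), and 6 were detected on all arrays, with log2 fold changes from −0.17 to 0.03. Dnmt1, the methyltransferase that copies DNA methylation at cell division, had −0.10 (SE 0.13), and Trim28, the cofactor of ZFP57, had 0.03 (SE 0.07), with 0.27 (SE 0.20) at its second probe. Zfp57 itself was detected on all 4 control arrays and on 1 βFbln5KO array (log2 fold change −0.15, SE 0.27). Its signals ran from −4.46 to −3.64 on control arrays and from −4.66 to −4.18 on βFbln5KO arrays. The lowest detected signals lay between −5.01 and −4.79 on control arrays and between −4.70 and −4.19 on βFbln5KO arrays. Near these levels the counts of detected arrays are therefore not comparable between the groups. Of all 26 maintenance and partner genes, 1 was lower at the unadjusted threshold (Insr) and 1 higher, Igf2bp1, which binds Igf2 RNA and was dim on all 8 arrays. Of all genes, 2.68% were lower and 16.8% higher at that threshold.

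The tissue label was checked with marker lists. The 7 β-cell markers were detected on all arrays, with a mean signal of 5.07 to 5.12 in control islets and of 4.99 to 5.12 in βFbln5KO islets. The α-cell markers Gcg and Irx2 had log2 fold changes of −0.10 (SE 0.10) and −0.31 (SE 0.18), with overlap between the groups at each. Their mean ranged from 4.13 to 4.22 in control islets and from 3.81 to 4.27 in βFbln5KO islets, with βFbln5KO replicates 1, 2 and 4 below all control arrays. The mean of 6 acinar markers ranged from 4.60 to 6.55 in control islets and from 3.95 to 5.77 in βFbln5KO islets, with 6 of 6 below 0 and 1, Cela1, lower at the unadjusted threshold (−0.46, SE 0.17). The median log2 fold change of the 6 was −0.89, and the lowest was −1.37 (SE 0.83) for Cel. The δ-cell markers ranged from 3.52 to 3.86 and from 3.45 to 3.70, the endothelial markers from 1.73 to 1.86 and from 1.65 to 1.85, and the mesenchymal markers from −0.86 to 0.32 and from −0.76 to −0.10. Of the 5 ductal and 5 macrophage markers none passed the unadjusted threshold, and no marker of any list was dim on all 8 arrays. The differences of these α-cell markers and of the acinar markers had the same sign as those of Grb10 and Peg3. This sign was shared by 2 of 2 δ-cell, 6 of 7 mesenchymal and 5 of 7 β-cell markers. It was also shared by 3 of 5 endothelial, 3 of 5 ductal and 2 of 5 macrophage markers. The part of any marker's cell type in the differences of Grb10 and Peg3 was not tested. In islet RNA, fewer cells of a type and less RNA per cell cannot be told apart.

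The genes that followed each measured member most closely across the 8 arrays were read from 13551 genes, as a description in which the arrays share their groups and handling. For Grb10 they were Astl (Pearson r = 0.978, Spearman rho = 0.929) and Rn28s1 (0.974 and 0.952), and 20 genes exceeded r = 0.9. For Peg3 they were Kdm5a (0.978 and 0.952) and 2610507B11Rik (0.968 and 0.905), for Meg3 Abcc10 (0.969 and 1) and Cdk1 (0.956 and 0.929), and for Dlk1 Togaram2 (0.962 and 0.976) and Tceanc (0.95 and 0.81). For Igf2 they were Shb (0.959 and 0.929) and Mrpl47 (0.953 and 0.81), for Nnat Txndc11 (0.975 and 1) and Kmt2b (0.975 and 0.952). Cdkn1c and Plagl1 had the most such genes, 115 and 183 above r = 0.9, led by Snrpg (0.99 and 0.976) and Syce2 (0.982 and 0.881) for Cdkn1c and by Hmgn3 (0.979 and 0.929) and Srsf3 (0.979 and 0.881) for Plagl1. No imprinted gene was among the leading pairs.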

How the data were processed

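Islet RNA was labelled with Cy3 and hybridised to 1 slide of 8 Agilent mouse arrays. The authors deposited the processed intensity of each spot from Agilent Feature Extraction 11.0.1.1 (submitters' processing notes), which is background-subtracted and not normalized between arrays, and the flags for outlier spots and for spots well above background. The authors also deposited a signal table of 35553 probes, in which 99.8% of values were the processed intensity divided by 1 number per array, within 0.01%. It held 14 of the 18 probes and was used as an alternative. Sequences upstream of gene starts are from RefSeq (GRCm38.p6), in which 7 of the 10 genes had a window.

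The log2 of the processed intensity minus each array's 75th percentile over 59305 spots was used. Outlier values (1689 of 474440) were left out, no spot was saturated, and spots of a probe were averaged. RefSeq accessions gave 32994 probes a symbol (58.3%). limma 3.58.1 (eBayes with trend, R 4.3.3) compared the groups. Benjamini-Hochberg adjustment ran over the 56605 probes, and 0.05 was the threshold. An exact permutation test, two-sided, was added for single probes. The number of arrays limits the precision. Correlations were computed with scipy 1.17.1.

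The genes and lists were chosen with earlier results of these data known. Named were Fbln5, all probes of the 10 genes, the 10 other imprinted genes of smallest p measured on every array, partner genes with an unadjusted p under 0.05, listed markers at an end of their list's range of differences and the 2 genes most like each member. Relatives, receptors and neighbours set beside a member were named after their values were seen. Results of 2 listed α-cell markers are not reported here. A gene is represented by its brightest probe. The alternatives were normexp (offset 50), quantile normalization, keeping only probes detected on 4 or more arrays, a floor on dim signals, eBayes without trend, outliers kept, the deposited table, a replicate block, the methods' t-test, averaging the probes of a gene and each array left out.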

Additional observations from a re-analysis of the deposited data

Results flagged for a closer look

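Of 69 groups of 4 arrays tested for an array far from the others, 2 had an end array past Dixon's 95% critical value for the gap divided by the range. Chance flags about 1 in 20 groups. At the Meg3 probe A_55_P2736010, βFbln5KO replicate 3 had a log2 signal of 4.76 against 4.50 on the next array (gap over range 0.84), and this array was also the highest βFbln5KO array at the other 3 Meg3 probes. At the Insr probe A_55_P2173927, βFbln5KO replicate 2 had −2.68 against −2.76 on the next array (gap over range 0.868), within a group whose SD was 0.04.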

How the results depend on the processing

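In none of the alternatives did any of the 10 genes pass the adjusted threshold. The 3 member genes past the unadjusted threshold were 1 with normexp and 1 with the methods' t-test. They were 2 with quantile normalization, the filter, the floor on dim signals, eBayes without trend or the deposited table. With quantile normalization the 2 were Grb10 and the dim Peg10. The 3 other imprinted genes were 1 with quantile normalization, 1 with the filter, 1 with the floor on dim signals and 2 with the deposited table. Their median log2 fold change of 0.02 was −0.030 with normexp and −0.009 with the floor. The 2 maintenance and partner genes were 0 with quantile normalization and 1 with normexp, the filter, the floor, outliers kept, the deposited table or the replicate block. The 6 probes of the whole array past the adjusted threshold were 10 with quantile normalization, 3 with the floor, 6578 without trend, 87 with the methods' t-test and 2 with the replicate block. They were 4 with normexp, the filter or the deposited table. The cause was not tested. Log2 fold changes that turned sign were Meg3 (−0.017 with normexp, −0.088 as the mean of its probes), Plagl1 (−0.015 with normexp) and Peg10 (0.054 as the mean of its probes). With each array left out in turn, ranges were 1 to 3 member genes, 3 to 7 other imprinted genes, 1 to 4 maintenance and partner genes and 5 to 11544 probes, the last without βFbln5KO replicate 4. The log2 fold changes then ranged from −0.058 to 0.061 for Meg3, −0.079 to 0.13 for Cdkn1c, −0.084 to 0.15 for Plagl1, −0.41 to 0.16 for Igf2, −0.44 to −0.06 for Dlk1, −0.36 to −0.01 for Nnat, −0.40 to −0.16 for Kcnq1ot1 and −0.78 to −0.33 for Fbln5. Same-numbered arrays deviated together with r of 0.2, 0.295, −0.225 and −0.022, and arrays of unlike number with r from −0.289 to 0.35. With 4 arrays per group these values cannot decide whether the numbers pair the samples. Under the replicate block Grb10 and Peg3 both had a limma adjusted p of 0.219.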
